A study of Homo sapiens with 32 samples.

Results

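Glycolysis splits glucose into pyruvate in the cytosol, and lactate dehydrogenase then turns pyruvate into lactate. HEK293T is a widely used cell line from human embryonic kidney. In its messenger RNA 10 enzymes along that route were followed after knockout of IGF2BP1, IGF2BP2 or IGF2BP3. These were HK2, PFKP, ALDOA, TPI1, GAPDH, PGK1, PGAM1, ENO1, PKM and LDHA. They were taken by symbol from the deposited count tables, where each matched 1 of 62703 gene identifiers, and all 10 passed the filter on low counts in every comparison. IGF2BP proteins bind messenger RNA and are best known for protecting bound transcripts from decay.

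The first enzymes of the route use ATP: hexokinase traps glucose as glucose 6-phosphate, and phosphofructokinase makes the committed step. Aldolase then splits the hexose into triose phosphates, which triosephosphate isomerase interconverts. The lower steps return ATP and NADH and end with pyruvate kinase. Many of these genes are textbook targets of the hypoxia-inducible factor HIF1 and of MYC, and their messages are abundant in proliferating cell lines.

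The 4 genotypes were a CRISPR control, carrying a guide RNA that matches no mammalian gene, and a knockout of each of IGF2BP1, IGF2BP2 and IGF2BP3. Knockout cells had been given non-integrating plasmids with guides for 1 gene and GFP, and were grown from single sorted GFP-positive cells without further treatment. Each knockout was 1 clone, so an effect of the knockout and a property of the clone cannot be told apart, and the labels do not say whether the control was a clone or a pool. Total, nuclear and cytoplasmic poly(A) RNA each had 4 control libraries, 1 per batch in batches 1 to 4. Each knockout had 2 libraries per RNA kind, the IGF2BP1 knockout in batches 1 and 2 and the others in batches 3 and 4. Cytoplasmic RNA of the IGF2BP3 knockout had 2 more libraries, both in batch 5, which held no control. Nothing in the labels ties libraries to separately grown cultures, so p-values measure the spread between these libraries, which may be technical. As in any bulk sample, fewer cells expressing a gene and less RNA per cell cannot be told apart.

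The 32 libraries held 13689067 to 26119480 counts. The library labelled total RNA, IGF2BP1 knockout 2 and the library labelled nuclear RNA, IGF2BP1 knockout 1 were identical: 0 of 62703 identifiers differed. Which label is right cannot be told apart from the files, so values of the 10 enzymes that rest on it are given with and without that library. For most fits that leave out a library the share of all genes called is not given. Counts of members called in such a fit cannot be set against all genes. For the ratio test, log2 changes of the IGF2BP1 knockout are given without that library. Without it a fit holds 1 library of the IGF2BP1 knockout, which is then assumed to vary like the other groups, and this also holds wherever else 1 of a pair of knockout libraries is left out. Values of other genes and summed shares include it. In total RNA the targeted messages were lower in their own knockouts, at 25.9 ± 1.70 CPM (counts scaled to a common library total; SD, n = 2) against 442 ± 34.5 in the controls (n = 4) for IGF2BP1. The corresponding values were 34.5 ± 0.351 against 88.6 ± 15.3 CPM for IGF2BP2 and 44.0 ± 0.949 against 83.6 ± 3.56 CPM for IGF2BP3. Other family members were also called lower in total RNA. IGF2BP1 was at 74.7% and IGF2BP3 at 71.5% of control in the IGF2BP2 knockout, and IGF2BP1 at 71.8% in the IGF2BP3 knockout. In the IGF2BP1 knockout IGF2BP2 was at 68.6%, but at 105% and not called in cytoplasmic RNA. The remaining pairs were not called in total RNA. Of 7 epithelial and neural-type genes listed for HEK293T, VIM was highest in total RNA, at 379 to 695 CPM. PAX2 (2.50 to 8.01 CPM), EPCAM (0.648 to 3.11) and NEFH (0.115 to 2.93) were lowest. Among 5 blood cell genes, HBB had 0 counts there and CD34, the highest, at most 17. Of the genes listed for fibroblasts, COL1A1 was at 17.7 to 69.7 CPM and COL3A1 at 2.54 to 9.27, while DCN and LUM had at most 2 and 13 counts.

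Promoters are shown for the member that fell most in total RNA of each knockout: LDHA for IGF2BP2, HK2 for IGF2BP3 and PFKP for IGF2BP1. HIF1 and MYC recognise short motifs that can be read in them. Each stretch holds the 250 bases before the most upstream RefSeq transcript start of the gene (GRCh38.p14), on the gene's strand. Capitals mark ACGTG, the core of the hypoxia response element, and its variant GCGTG on either strand, so that they also appear as CACGT and CACGC. The palindrome CACGTG, the E-box bound by MYC, holds ACGTG on both strands and so overlaps it.
LDHA, chr11:18394313-18394562, plus strand: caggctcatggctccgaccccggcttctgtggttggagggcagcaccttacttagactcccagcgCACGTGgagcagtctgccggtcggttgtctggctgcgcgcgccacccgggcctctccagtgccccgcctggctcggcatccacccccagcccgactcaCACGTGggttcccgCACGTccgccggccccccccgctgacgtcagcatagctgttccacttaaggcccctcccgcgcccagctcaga
HK2, chr2:74833877-74834126, plus strand: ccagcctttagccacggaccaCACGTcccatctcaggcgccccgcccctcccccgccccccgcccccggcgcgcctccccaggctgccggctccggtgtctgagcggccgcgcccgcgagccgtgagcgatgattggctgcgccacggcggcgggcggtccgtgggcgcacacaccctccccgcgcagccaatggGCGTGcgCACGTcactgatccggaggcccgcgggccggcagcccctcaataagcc
PFKP, chr10:3067720-3067969, plus strand: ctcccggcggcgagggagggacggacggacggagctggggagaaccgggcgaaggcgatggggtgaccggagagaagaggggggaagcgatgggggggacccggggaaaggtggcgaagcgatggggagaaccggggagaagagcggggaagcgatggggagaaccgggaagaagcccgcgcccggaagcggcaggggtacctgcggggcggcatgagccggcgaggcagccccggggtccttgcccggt
The LDHA stretch held 5 matches to ACGTG counted over both strands, with 2 copies of CACGTG among them. The HK2 stretch held 2 matches to ACGTG and 1 to GCGTG, and the PFKP stretch, which lies inside the GENCODE gene, held no match to either. In the corresponding stretch of all 10 members, ACGTG was present in 5, GCGTG in 3 and CACGTG in 2. Of 35116 RefSeq promoter windows of the same length, 18.5% held ACGTG, 32.2% GCGTG and 6.34% CACGTG. HK2, PFKP and LDHA have further RefSeq starts, with other matches: the second HK2 window held 4 matches to ACGTG. Binding of these factors was not measured.

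In the control cells the 10 messages differed widely in abundance. Levels between genes were compared as CPM per kilobase of exon, since the deposited FPKM values were scaled by the whole genomic span of each gene. All annotated exons of a gene were counted in that length, whichever transcripts the cells use, so the order depends on that choice. In total RNA GAPDH, which oxidises glyceraldehyde 3-phosphate, was highest at 812 ± 23.6 CPM per kilobase (SD, n = 4). ENO1, an enolase, followed at 363 ± 25.9 and TPI1, the triosephosphate isomerase, at 302 ± 22.1. PKM, the pyruvate kinase of most tissues, was at 153 ± 17.4 and LDHA, a lactate dehydrogenase subunit, at 132 ± 19.7 CPM per kilobase, and the control libraries of this pair overlapped. PGK1 (91.6 ± 9.11), PGAM1 (52.1 ± 2.10) and PFKP (28.9 ± 0.676) came next without overlap between neighbours. HK2 (15.1 ± 0.498) and ALDOA (15.0 ± 1.30 CPM per kilobase) were lowest and overlapped each other. The place of ALDOA is uncertain, since it shares exons with another gene on the same strand. Nuclear RNA had the same order. In cytoplasmic RNA LDHA stood above PKM (188 against 172 CPM per kilobase) and ALDOA above HK2 (18.2 against 13.3), with no overlap between neighbours.

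The members lie on 8 chromosomes, given here in GENCODE 29 on GRCh38. HK2 (ENSG00000159399) is at chr2:74833981-74893359 on the plus strand and PFKP (ENSG00000067057) at chr10:3066333-3137712 on the plus strand. ALDOA (ENSG00000149925) is at chr16:30064164-30070457 and TPI1 (ENSG00000111669) at chr12:6867119-6870948, both on the plus strand. GAPDH (ENSG00000111640) is at chr12:6533927-6538374 on the plus strand and PGK1 (ENSG00000102144) at chrX:77910739-78129296 on the plus strand. PGAM1 (ENSG00000171314) is at chr10:97426160-97433441 on the plus strand and ENO1 (ENSG00000074800) at chr1:8861000-8879250 on the minus strand. PKM (ENSG00000067225) is at chr15:72199029-72231822 on the minus strand and LDHA (ENSG00000134333) at chr11:18394388-18408425 on the plus strand. ALDOA shared 1657 of its 3916 exonic bases (42.3%) with AC093512.2 on the same strand, and how reads in shared exons were counted is not given in the sources used here, so its level is uncertain. In total RNA ALDOA had 394 to 1399 counts per library and AC093512.2 had 47 to 152. GAPDH overlapped the antisense gene AC006064.4 over 422 of 2981 exonic bases, with 11 to 57 counts for the latter against 22633 to 58230 in total RNA. Processed pseudogenes named after a member held at most 2.97% of its counts, the highest share being that of PGAM1.

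In total RNA all 10 messages were lower than in the control in the IGF2BP2 and in the IGF2BP3 knockout, while HK2 and PFKP were the members called in the IGF2BP1 knockout. After IGF2BP2 knockout the members stood at 28.5% (LDHA) to 59.7% (HK2) of the control, and after IGF2BP3 knockout at 26.3% (HK2) to 79.0% (PKM). Of all 18745 genes tested, 47.0% were called in the IGF2BP2 knockout, 23.7% of them all being lower, and 46.9% were called in the IGF2BP3 knockout, with 23.4% lower. In the IGF2BP1 knockout 2 of the 10 were called, both lower, against 24.2% of all genes called and 13.5% called lower. The median log2 change of the members was -0.02 in the IGF2BP1, -1.18 in the IGF2BP2 and -0.75 in the IGF2BP3 knockout, beside 0.00, 0.02 and 0.02 over all genes tested. Calls are at an adjusted p under 0.05 in edgeR's quasi-likelihood test with batch as a term, and folds use TMM scaling. Control libraries are shared by the comparisons for IGF2BP2 and IGF2BP3, so their changes are not independent of each other.

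**Figure D1:**
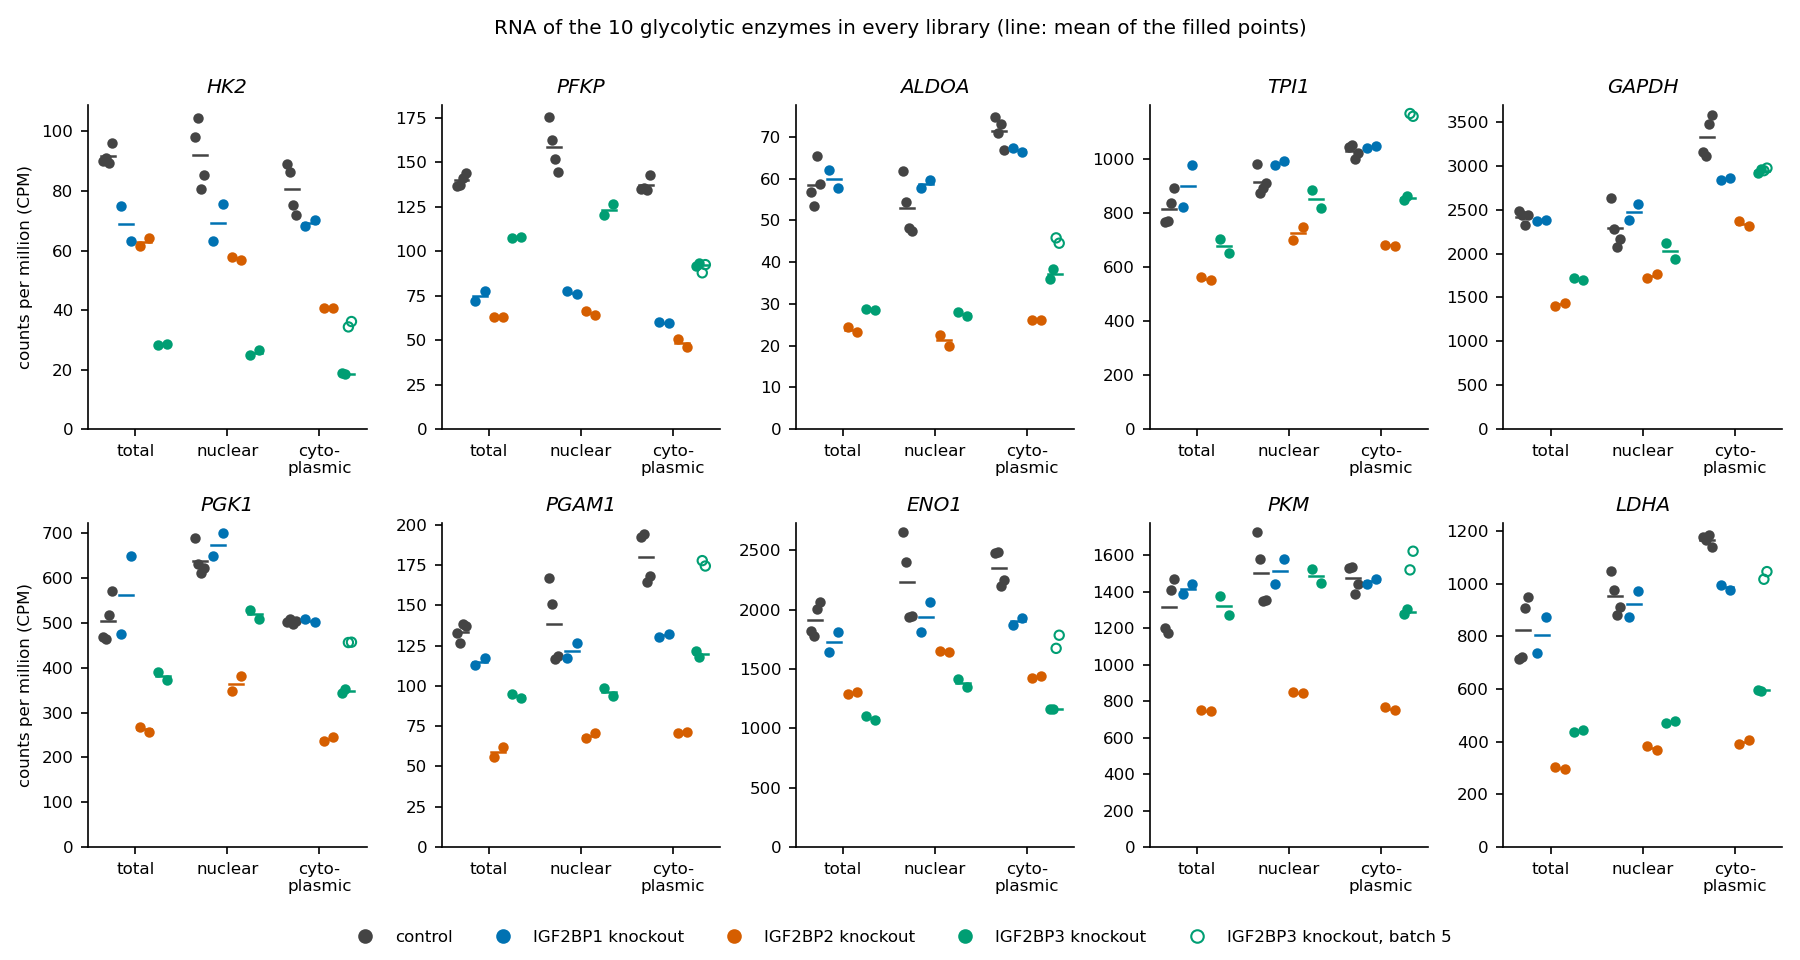
CPM of each of the 10 enzymes in every library of total, nuclear and cytoplasmic RNA, 1 panel per gene with its own axis from 0, points coloured by genotype, open circles for the libraries of batch 5 and a line at the mean of the filled points. In total RNA the 2 HK2 values of the IGF2BP3 knockout (28.1 and 28.5 CPM) lie far below the 4 controls (89.5 to 96.1 CPM), whereas ALDOA, GAPDH and LDHA values of the IGF2BP1 knockout fall inside the control range.

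Both enzymes of the sugar-activating steps moved in all 3 knockouts. HK2, the hexokinase that phosphorylates glucose at the mitochondrial surface, was at 90.2, 90.9, 89.5 and 96.1 CPM in the total RNA of controls 1 to 4. It was at 75.0 and 63.1 CPM in the IGF2BP1, 61.4 and 64.4 in the IGF2BP2 and 28.1 and 28.5 in the IGF2BP3 knockout. All 6 knockout libraries lay below the controls, and those of the IGF2BP3 knockout lay lowest. HK2 fell in each of them, with a log2 change of -0.45 ± 0.0961 (SE, adjusted p = 0.00456) without IGF2BP1, -0.74 ± 0.0968 (4.59e-05) without IGF2BP2 and -1.93 ± 0.101 (3.74e-08) without IGF2BP3. PFKP, the platelet-type phosphofructokinase, was at 137, 137, 141 and 144 CPM in the controls. Its values were 72.2 and 77.5 CPM in the IGF2BP1, 62.8 and 63.3 in the IGF2BP2 and 108 and 108 in the IGF2BP3 knockout. No knockout library overlapped the controls, and here the IGF2BP3 knockout stood nearest to them. PFKP fell to 52.4% of control without IGF2BP1 (log2 -0.93 ± 0.0888, adjusted p = 1.62e-05), to 39.0% without IGF2BP2 (-1.36 ± 0.09, 2.37e-07) and to 65.3% without IGF2BP3 (-0.62 ± 0.0877, 9.47e-05).

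ALDOA and TPI1, the enzymes that make and interconvert the triose phosphates, were in the control range in the IGF2BP1 knockout or above it. ALDOA, the aldolase of muscle and many cell lines, was at 56.7, 53.4, 65.5 and 58.7 CPM in the controls and at 62.1 and 57.6 CPM in the IGF2BP1 knockout. It was at 24.4 and 23.2 CPM in the IGF2BP2 and at 28.7 and 28.6 CPM in the IGF2BP3 knockout, all 4 below the controls. Its log2 change was 0.06 (95% interval -0.12 to 0.25, adjusted p = 0.677), -1.57 ± 0.101 (1.92e-07) and -1.33 ± 0.099 (4.98e-07) in the knockouts of IGF2BP1, IGF2BP2 and IGF2BP3. TPI1 was at 765, 769.7, 836 and 890.4 CPM in the controls. It was at 821 and 975 CPM in the IGF2BP1 knockout, the higher of them above all controls, at 563 and 549.9 in the IGF2BP2 and at 703 and 653 in the IGF2BP3 knockout. TPI1 fell without IGF2BP2 (log2 -0.82 ± 0.0894, adjusted p = 1.2e-05) and without IGF2BP3 (-0.57 ± 0.0891, 0.000209). In the IGF2BP1 knockout its log2 change was 0.16 ± 0.0888 (0.202).

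GAPDH and PGK1, which oxidise the triose phosphate and recover the first ATP, followed the same division. GAPDH was at 2486, 2439.7, 2321 and 2437 CPM in the controls and at 2369 and 2383 CPM in the IGF2BP1 knockout, inside that range. It was at 1399 and 1442 CPM in the IGF2BP2 and at 1726 and 1700.1 CPM in the IGF2BP3 knockout, below every control. GAPDH is often used as a reference gene for quantitative PCR, and in these libraries it fell to 52.6% of control without IGF2BP2 (log2 -0.93 ± 0.0745, adjusted p = 1.07e-06) and to 62.0% without IGF2BP3 (-0.69 ± 0.0742, 9.91e-06). In the IGF2BP1 knockout its log2 change was -0.11 (95% interval -0.25 to 0.03, adjusted p = 0.306). PGK1, phosphoglycerate kinase, was at 468, 464, 518 and 571 CPM in the controls. It was at 475 and 649 CPM in the IGF2BP1, 268 and 257 in the IGF2BP2 and 391 and 373 in the IGF2BP3 knockout. The IGF2BP2 libraries were lowest, those of the IGF2BP3 knockout lay between them and the controls, and 1 library of the IGF2BP1 knockout was above all controls. PGK1 fell without IGF2BP2 (-1.24 ± 0.11, 2.43e-06) and without IGF2BP3 (-0.73 ± 0.109, 0.000144), and its change without IGF2BP1 was 0.20 ± 0.109 (0.214).

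PGAM1, the mutase that moves the phosphate of 3-phosphoglycerate, was at 133, 126, 138 and 137 CPM in the controls. It was at 113 and 117 CPM in the IGF2BP1, 56.1 and 62.0 in the IGF2BP2 and 94.9 and 92.6 in the IGF2BP3 knockout. All 6 values lay below the controls, yet the log2 change without IGF2BP1 was -0.23 ± 0.0923 and was not called (adjusted p = 0.0863). PGAM1 fell without IGF2BP2 (-1.40 ± 0.0952, 2.88e-07) and without IGF2BP3 (-0.77 ± 0.0929, 2.49e-05). ENO1, the enolase that makes phosphoenolpyruvate, was at 1820.2, 1781, 2003 and 2061 CPM in the controls. It was at 1642 and 1811 CPM in the IGF2BP1, 1287 and 1304 in the IGF2BP2 and 1105 and 1068 in the IGF2BP3 knockout. With HK2, it was the member that stood lower in the IGF2BP3 than in the IGF2BP2 knockout. ENO1 fell without IGF2BP2 (-0.83 ± 0.0797, 4.17e-06) and without IGF2BP3 (-1.12 ± 0.0802, 3.57e-07), and its change without IGF2BP1 was -0.12 ± 0.0792 (0.296).

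At the end of the route LDHA and PKM parted in the IGF2BP3 knockout. PKM was at 1200.0, 1177, 1411 and 1472 CPM in the controls, at 1387 and 1444 CPM in the IGF2BP1, at 753 and 743 in the IGF2BP2 and at 1375 and 1271 in the IGF2BP3 knockout. The IGF2BP3 values lay inside the range of the 4 controls but below those of their own batches (1411 and 1472 CPM). PKM fell without IGF2BP3 (log2 -0.34 ± 0.0796, adjusted p = 0.00347), a call lost when libraries were scaled by their totals in place of TMM (-0.12, 0.202). It fell further without IGF2BP2 (-1.13 ± 0.0805, 4.15e-07), and without IGF2BP1 its change was 0.19 ± 0.0795 (0.0945). LDHA, the subunit that favours making lactate, was at 712, 723, 906 and 948 CPM in the controls and at 737 and 874 CPM in the IGF2BP1 knockout. It was at 303 and 297 CPM in the IGF2BP2 and at 437 and 444 CPM in the IGF2BP3 knockout, so neither group overlapped the controls. LDHA fell to 28.5% of control without IGF2BP2 (log2 -1.81 ± 0.0877, 1.76e-08) and to 40.9% without IGF2BP3 (-1.29 ± 0.0862, 2.16e-07). In the IGF2BP1 knockout its log2 change was 0.10 (95% interval -0.06 to 0.27, adjusted p = 0.409).

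Of the 10 members, both libraries of a knockout lay below all 4 controls in total RNA for 3 members in the IGF2BP1, 10 in the IGF2BP2 and 9 in the IGF2BP3 knockout. Over the 15314 genes with a mean of at least 1 CPM in total RNA, that share was 17.1%, 25.4% and 22.6%. Paired with the control of the same batch, the 10 members in 2 batches gave 20 values per knockout, which share libraries and are not replicates. Of these values 9 were lower than control for IGF2BP1, 20 for IGF2BP2 and 20 for IGF2BP3. The share over all genes was not computed for this measure. Leaving out the library that 2 labels share leaves 1 library of the IGF2BP1 knockout. The log2 changes in total RNA were then -0.33 for HK2, -0.99 for PFKP and -0.30 for PGAM1. With the other IGF2BP1 library left out, the library in doubt stands alone. TPI1 was then at 0.29, PGK1 at 0.43, PKM at 0.24 and LDHA at 0.22. Leaving out control 1 gave 6 calls, these 4 genes among them and higher. The share of all genes called in that fit is not given here. None of those 4 genes was called with both knockout libraries and all controls. Scaling by library totals in place of TMM moved the median change of all genes to 0.06, 0.20 and 0.23 in the 3 knockouts. In that scaling 10 members for IGF2BP2 and 9 for IGF2BP3 were still called, all lower, while over all genes the split of higher to lower calls went from 4371 and 4439 to 6169 and 2777 for IGF2BP2 and from 4403 and 4392 to 6683 and 2438 for IGF2BP3.

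**Figure D2:**
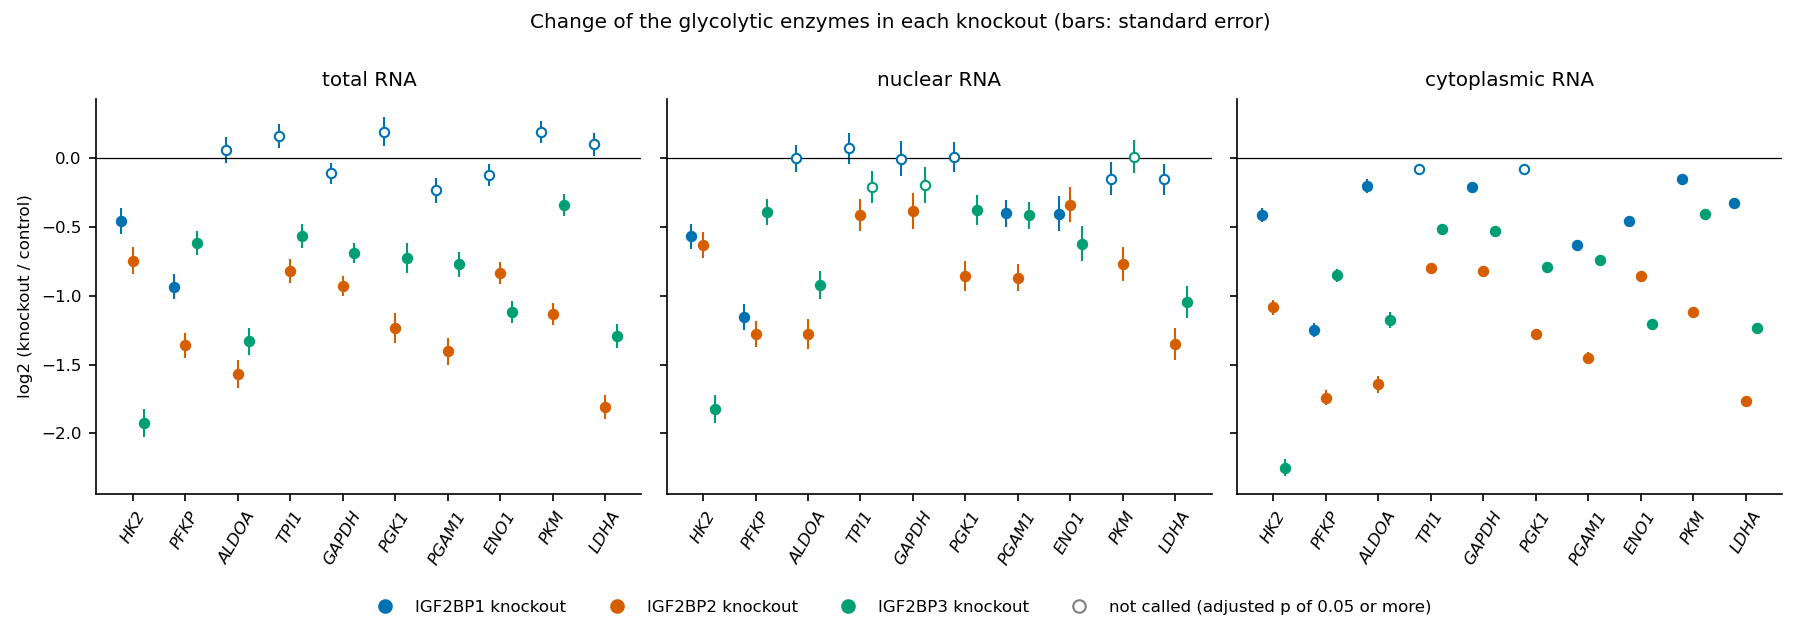
Fitted log2 change from control of each enzyme, in pathway order, with 1 panel per RNA kind and 1 colour per knockout; bars are 1 standard error and open circles were not called. LDHA (log2 -1.81 in total RNA) is furthest from 0 among the members in the IGF2BP2 knockout, HK2 (-1.93) in the IGF2BP3 knockout and PFKP (-0.93) in the IGF2BP1 knockout.

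The knockouts differed from one another in these messages. In total RNA 9 members were lower in the IGF2BP2 than in the IGF2BP1 knockout (33.3% of all genes were called for that difference and 16.9% called lower), and HK2 was the exception with a difference of -0.29 (adjusted p = 0.119). Likewise 9 were lower in the IGF2BP3 than in the IGF2BP1 knockout (34.4% of all genes called, 17.4% lower), PFKP being the exception at 0.32 (0.0645). Without the library that 2 labels share, which leaves 1 library of the IGF2BP1 knockout, these 2 exceptions moved further from 0. The difference of HK2 between the IGF2BP2 and IGF2BP1 knockouts was then -0.43, and that of PFKP between the IGF2BP3 and IGF2BP1 knockouts was 0.37. The largest of these differences was that of LDHA between the IGF2BP2 and IGF2BP1 knockouts (-1.91, 1.07e-06). Between the IGF2BP3 and IGF2BP2 knockouts, which share batches, 9 members were called, 7 higher and 2 lower, against 43.3% of all genes, 21.8% higher and 21.5% lower. HK2 (log2 difference -1.18 ± 0.101, 2.12e-06) and ENO1 (-0.29, 0.0105) were lower without IGF2BP3. PFKP (0.74 ± 0.0894, 3.08e-05), TPI1 (0.25, 0.0346), GAPDH (0.24, 0.019), PGK1 (0.51, 0.00218), PGAM1 (0.63, 0.00016), PKM (0.79, 8.54e-06) and LDHA (0.52, 0.000333) were lower without IGF2BP2, and ALDOA differed by 0.24 (0.0793). The order of the losses within the route thus was not the same in the 2 knockouts. Leaving out total IGF2BP2 knockout 2 or total IGF2BP3 knockout 1 left 5 of these calls.

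In nuclear RNA the changes had the same direction as in total RNA where they were called. They were smaller than in total RNA without IGF2BP2 and IGF2BP3, while those called without IGF2BP1 were larger. All 10 members fell without IGF2BP2, to 39.3% to 79.2% of control, where 49.7% of all genes were called and 24.9% called lower. Without IGF2BP3 7 fell, to 28.3% to 77.2% of control, where 50.4% of all genes were called and 25.3% called lower. HK2 in controls 1 to 4 was at 98.1, 105, 80.7 and 85.4 CPM, against 57.9 and 56.7 CPM in the IGF2BP2 and 24.8 and 26.5 CPM in the IGF2BP3 knockout. LDHA was at 1046, 974, 882 and 912 CPM in the controls and at 385 and 369 CPM in the IGF2BP2 and 472 and 477 CPM in the IGF2BP3 knockout. For both genes the knockout libraries lay apart from the controls. HK2 fell without IGF2BP3 (log2 -1.82, adjusted p = 7.03e-20) and LDHA without IGF2BP2 (-1.35, 1.73e-13) and without IGF2BP3 (-1.04, 1.71e-10). TPI1 (-0.21, 0.129), GAPDH (-0.19, 0.225) and PKM (0.01, 0.938) were not called without IGF2BP3. PKM there read 1527 and 1447 CPM, against 1728, 1578, 1349 and 1353 CPM in the controls, so that its groups overlapped. The median log2 change of the members was -0.15, -0.81 and -0.40 without IGF2BP1, IGF2BP2 and IGF2BP3.

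Without IGF2BP1, 4 members fell in nuclear RNA: HK2 (log2 -0.57, adjusted p = 4.91e-06), PFKP (-1.16, 1.53e-13), PGAM1 (-0.40, 0.00124) and ENO1 (-0.40, 0.0155). Over all genes tested 25.7% were called and 13.0% called lower. PFKP was at 77.5 and 76.0 CPM in this knockout and at 176, 163, 152 and 145 CPM in the controls, with no overlap. Without the library that 2 labels share, again with 1 knockout library left and the spread taken from the other groups, HK2 (-0.43, 0.00308) and PFKP (-1.06, 9.82e-10) were still called, and PGAM1 (-0.22, 0.141) and ENO1 (-0.19, 0.255) were not. Leaving out nuclear control 1, or the batch term, also left 2 calls. Between knockouts, 6 members were lower without IGF2BP2 than without IGF2BP1 (28.1% of all genes called, 14.5% lower). Without IGF2BP3 4 were lower than without IGF2BP1 and PFKP was higher (34.7% of all genes called, 18.1% lower and 16.6% higher). Both counts were higher when the shared library was left out, which leaves 1 library of the IGF2BP1 knockout. For the IGF2BP3 and IGF2BP1 knockouts 9 were called without the batch term, where the share of all genes is not given here. Between IGF2BP3 and IGF2BP2 knockouts 7 were called (48.2% of all genes, 24.1% in each direction), HK2 lower and the other 6 higher without IGF2BP3.

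Cytoplasmic RNA, where the replicates lay closest together, gave the largest number of calls. All 10 members fell without IGF2BP2, to 29.4% to 57.7% of control, and all 10 without IGF2BP3, to 21.0% to 75.7%. Over all genes 64.2% were called without IGF2BP2, 33.2% lower, and 64.7% without IGF2BP3, 33.2% lower. Without IGF2BP1 8 fell, to 42.0% to 90.3% of control, where 44.4% of all genes were called and 21.9% called lower. HK2 was at 89.0, 86.4, 75.2 and 72.1 CPM in controls 1 to 4, at 68.4 and 70.3 CPM without IGF2BP1, 40.6 and 40.5 without IGF2BP2 and 18.9 and 18.4 in batches 3 and 4 without IGF2BP3. LDHA was at 1177, 1166, 1185 and 1139 CPM in the controls, at 996 and 976 without IGF2BP1, 390.0 and 407 without IGF2BP2 and 598 and 591 in batches 3 and 4 without IGF2BP3. All these knockout values lay below every control. HK2 fell most without IGF2BP3 (log2 -2.25 ± 0.0606, adjusted p = 1.71e-25), and LDHA fell without IGF2BP2 (-1.77, 6.31e-29), IGF2BP3 (-1.23, 1.15e-24) and IGF2BP1 (-0.32, 2.03e-09).

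The fall without IGF2BP1 was again largest for PFKP, at 60.3 and 59.5 CPM against 135, 136, 134 and 143 CPM in the controls (log2 -1.25, adjusted p = 3.44e-20). PGAM1 followed, at 130.2 and 133 CPM against 193, 194, 164 and 168 CPM (-0.63, 7.32e-15), and ENO1, at 1871 and 1933 CPM against 2476, 2483, 2201 and 2246 CPM (-0.46, 6.27e-13). None of these overlapped the controls. HK2 (-0.41, 1.83e-08), GAPDH (-0.21, 3.42e-06), ALDOA (-0.20, 0.00232) and PKM (-0.15, 0.00099) fell by less. TPI1 (-0.08, 0.0556) and PGK1 (-0.08, 0.0733) were not called. In a fit without the batch term 2 members, in place of 8, were called in the IGF2BP1 knockout. Median log2 changes of the members were -0.27, -1.20 and -0.82 in the knockouts of IGF2BP1, IGF2BP2 and IGF2BP3. No member was called higher than control in any of the 9 comparisons of a knockout with the control. HK2 and PFKP were called in 9 of them, PGAM1 and ENO1 in 8, ALDOA and LDHA in 7, GAPDH, PGK1 and PKM in 6 and TPI1 in 5.

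Between the knockouts, all 10 members were lower in cytoplasmic RNA without IGF2BP2 than without IGF2BP1 (48.4% of all genes called, 27.5% lower). Without IGF2BP3 8 were lower than without IGF2BP1 and PFKP was higher (51.3% of all genes called, 29.1% lower and 22.2% higher), with 4 calls in a fit without the batch term. All 10 differed between the IGF2BP3 and IGF2BP2 knockouts (62.7% of all genes called, 31.3% higher and 31.5% lower), 8 higher and 2 lower without IGF2BP3. HK2 (-1.17) and ENO1 (-0.35) were the lower ones, as in total RNA. PFKP (0.89), PKM (0.72) and PGAM1 (0.71) differed most in the other direction.

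**Figure D3:**
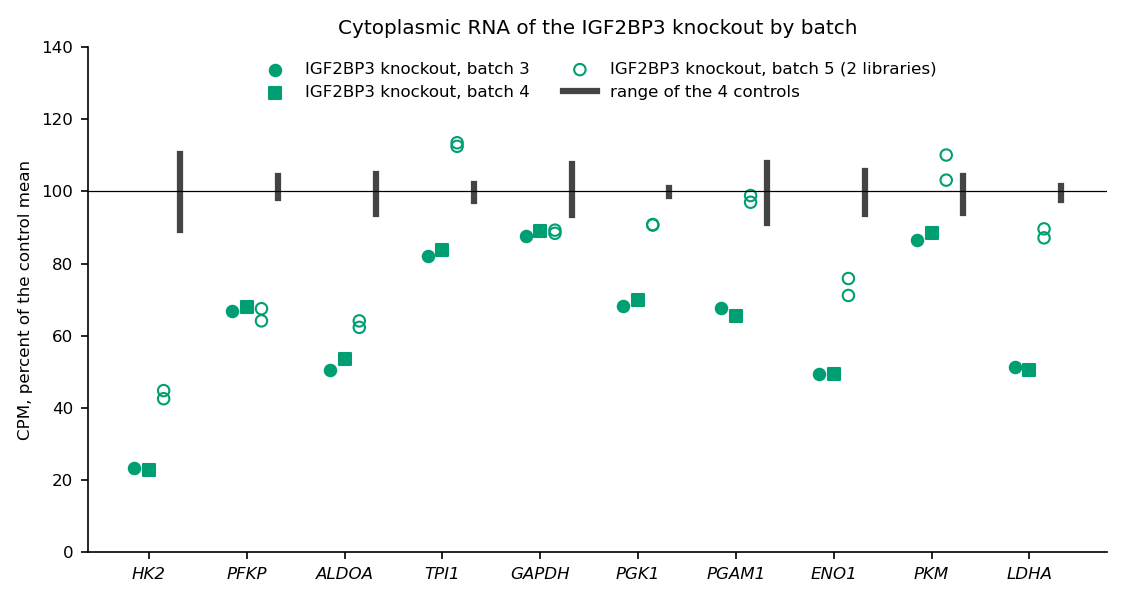
Cytoplasmic CPM of the 4 IGF2BP3 knockout libraries as percent of the mean of the 4 controls, for each enzyme, with batches 3 and 4 and the 2 libraries of batch 5 as separate symbols and a dark bar for the range of the controls. LDHA is at 51.3% and 50.7% in batches 3 and 4 and at 87.1% and 89.6% in batch 5, while GAPDH is at 87.6% to 89.3% in all 4.

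The 2 cytoplasmic libraries of the IGF2BP3 knockout from batch 5 stood apart for most members. Since batch 5 held no control, the fit with batch drew no part of the change from them and used them only for the spread. As percent of the mean of the 4 controls, HK2 was at 23.4% and 22.8% in batches 3 and 4 and at 42.6% and 44.8% in batch 5. LDHA was at 51.3% and 50.7% against 87.1% and 89.6%, PGAM1 at 67.8% and 65.4% against 98.9% and 97.0%, and TPI1 at 82.2% and 83.8% against 113% and 112%. GAPDH read alike, at 87.6% and 89.1% against 88.4% and 89.3%, and so did PFKP, at 67.0% and 68.1% against 64.1% and 67.5%. Whether these genes also read alike after TMM scaling is not given here. All these percentages are plain CPM, in which GAPDH appears nearer to the control than in the TMM-scaled fit (-0.53), since library totals shift the median of all genes by 0.29 here. With batch 5 in place of batches 3 and 4, 7 members were called, all lower. That comparison was chosen after the data were seen and needs a fit without batch. The share of all genes called in it is not given here, so the count cannot be set against it. In the main fit of the same knockout that share was 64.7%, with 33.2% lower. HK2 was still the lowest (log2 -1.27, adjusted p = 3.77e-08) and ALDOA (-0.74), PFKP (-0.68) and ENO1 (-0.52) followed. LDHA was at -0.25 (0.000379). TPI1 (0.10, 0.067), PGAM1 (-0.10, 0.215) and PKM (0.02, 0.8) were not called.

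**Figure D4:**
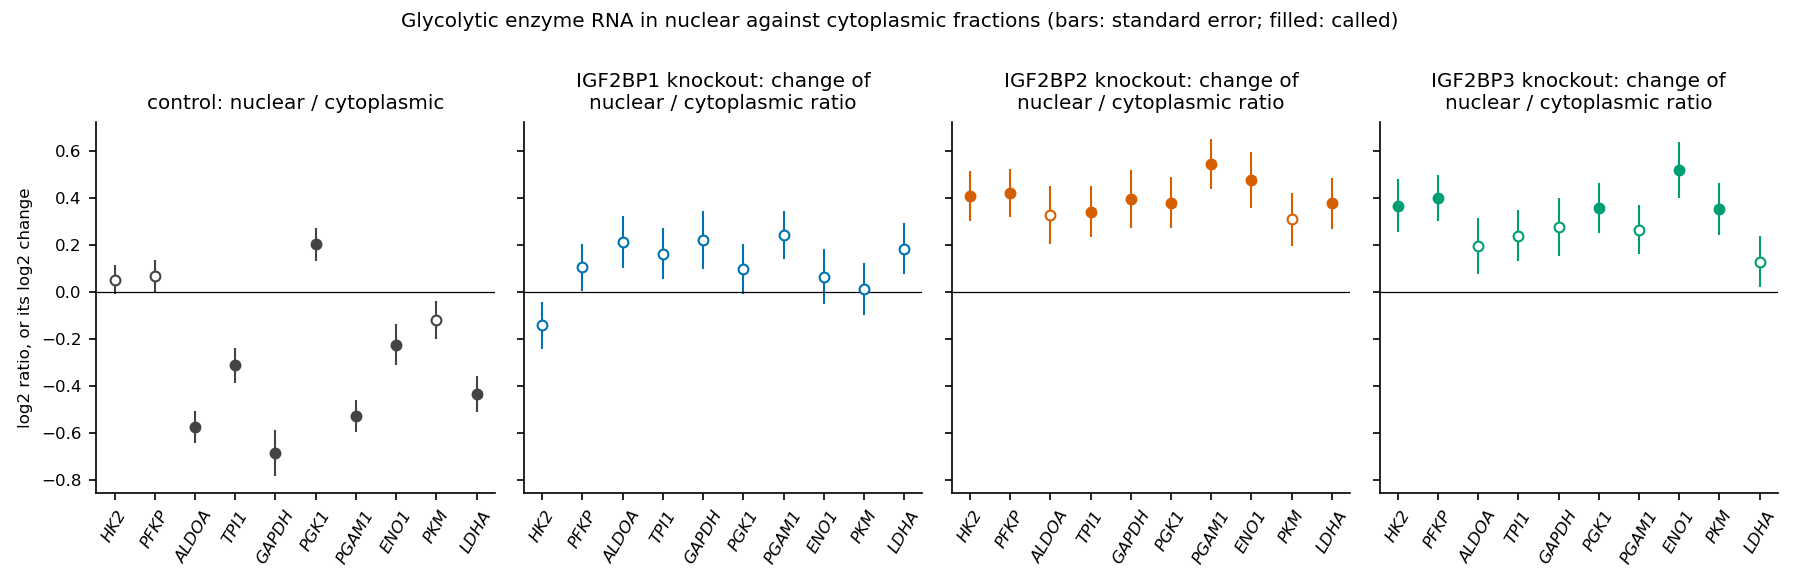
Change of the nuclear to cytoplasmic ratio of each enzyme in each knockout (log2, bars 1 standard error, filled circles called), beside the nuclear to cytoplasmic ratio of the controls. ENO1 shows ratio changes of 0.48 and 0.52 in the IGF2BP2 and IGF2BP3 knockouts, and GAPDH has the lowest ratio in the controls (-0.69).

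In the control cells most members were relatively more abundant in the cytoplasmic than in the nuclear libraries. Lower in nuclear RNA were GAPDH (log2 -0.69), ALDOA (-0.57), PGAM1 (-0.53), LDHA (-0.43), TPI1 (-0.31) and ENO1 (-0.22), while PGK1 was higher (0.20, adjusted p = 0.0143). HK2 (0.05), PFKP (0.07) and PKM (-0.12) were not called, and 65.9% of all genes tested were called for the fractions, 33.3% lower and 32.6% higher in nuclear RNA. These are shares of each library, so they give relative and not absolute amounts. The nuclear control libraries also held 7792 to 9115 CPM of 4 mitochondrial RNAs (MT-ND1, MT-CO1, MT-CYB and MT-ATP6). These RNAs summed to 26341 to 31034 CPM in cytoplasmic and 11519 to 14423 CPM in total RNA of the controls. How far each fraction held RNA of the other was not tested.

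For most of these messages the loss without IGF2BP2 and IGF2BP3 was smaller in nuclear than in cytoplasmic RNA when each batch was compared with its own control. It was not for ALDOA in batch 4 without IGF2BP3 (log2 of the CPM ratio -0.810 nuclear and -0.807 cytoplasmic). ENO1 in batches 3 and 4 had a nuclear to cytoplasmic CPM ratio of 0.882 and 0.867 in the controls, 1.16 and 1.14 without IGF2BP2 and 1.21 and 1.16 without IGF2BP3. PFKP had 1.13 and 1.01 in those controls, 1.31 and 1.40 without IGF2BP2 and 1.31 and 1.35 without IGF2BP3. For both genes these knockout ratios lay above the controls of the same batches, but ENO1 (1.07) and PFKP (1.30) in control 1 came close to them. The ratio was higher without IGF2BP2 for 8 members, where 18.0% of all genes were called and 8.68% called higher: PGAM1 (0.55, adjusted p = 7e-04), ENO1 (0.48, 0.0058), PFKP (0.42, 0.00506), HK2 (0.41, 0.00773), GAPDH (0.39, 0.0262), PGK1 (0.38, 0.0134), LDHA (0.38, 0.0169) and TPI1 (0.34, 0.0281). Without IGF2BP3 it was higher for 5, where 10.2% of all genes were called and 4.10% called higher: ENO1 (0.52, 0.0043), PFKP (0.40, 0.00809), HK2 (0.37, 0.0349), PGK1 (0.36, 0.0272) and PKM (0.35, 0.0405). The median over the members was 0.39 and 0.32 in these knockouts, beside 0.03 and -0.02 over all genes. In a fit without batch terms no member was called in either (ENO1 0.32, adjusted p = 0.23, and 0.36, 0.259). Leaving out single libraries gave 2 to 10 calls without IGF2BP2 and 1 to 8 without IGF2BP3.

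For IGF2BP1 no member's ratio was called (PGAM1, at 0.24 with an adjusted p of 0.19, was the 1 member at an unadjusted p under 0.05; 2.99% of all genes were called), and the ratio test has less power for such small changes than the tests within an RNA kind. Without the library that 2 labels share, here labelled nuclear IGF2BP1 knockout 1, 1 nuclear library of that knockout is left. The log2 ratio changes were then 0.40 for GAPDH, 0.39 for PGAM1, 0.35 for ALDOA, 0.33 for LDHA, 0.28 for TPI1 and 0.25 for ENO1. Those of the other members are not given here. Leaving out nuclear control 1 gave 6 calls, and the share of all genes called in that fit is not given here. A set of 4 RNAs known to be kept in the nucleus (MALAT1, NEAT1, KCNQ1OT1 and MEG3) summed to 128 to 150 CPM in cytoplasmic and 262 to 372 CPM in nuclear control libraries. Without IGF2BP2 the sums were 636 to 663 CPM in cytoplasmic and 511 to 558 CPM in nuclear RNA, and without IGF2BP3 they were 273 to 785 and 974 to 1123 CPM. Their total RNA level was higher too, at 768 to 793 CPM without IGF2BP2 and 1167 to 1424 CPM without IGF2BP3 against 249 to 305 CPM in the controls. The part of carry-over between the fractions in the ratio changes was not tested.

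A sum was taken over the 10 enzymes, which leaves out GPI and other isoenzymes of the same steps. This set held 0.822% ± 0.049 of all counts in the total RNA of the controls (SD, n = 4) and 0.810% ± 0.0494 without IGF2BP1 (n = 2), from 0.775% in 1 library and 0.845% in the one that 2 labels share. It held 0.479% ± 0.00193 without IGF2BP2 and 0.588% ± 0.0162 without IGF2BP3. In cytoplasmic RNA the share went from 1.03% ± 0.00866 in the controls to 0.604% without IGF2BP2, with 0.907% without IGF2BP1. Without IGF2BP3 the cytoplasmic share was 0.741% and 0.751% in batches 3 and 4 and 0.912% and 0.939% in the libraries of batch 5, which had no control. GAPDH, ENO1 and PKM, the members with the highest counts, weigh most in these sums.

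Genes around the route were read from 8 lists of 117 genes, written from general knowledge, and their counts can be read against all genes, of which 10.7%, 23.3% and 23.5% were called higher and 13.5%, 23.7% and 23.4% lower in total RNA of the IGF2BP1, IGF2BP2 and IGF2BP3 knockouts. Of 12 other isoenzymes of the same steps that were tested, 1 rose and 3 fell without IGF2BP1, 3 rose and 8 fell without IGF2BP2, and 5 rose and 5 fell without IGF2BP3. GPI, the isomerase between the hexokinase and phosphofructokinase steps, went from 396 ± 6.74 CPM to 218 without IGF2BP2 (log2 -1.06) and 188 without IGF2BP3 (-1.31), and was at 376 without IGF2BP1 (-0.11, not called). ENO2, the neuronal enolase, rose in all 3 knockouts while ENO1 fell in 2 of them. It went from 18.1 ± 1.16 CPM to 33.4, 53.2 and 80.8 CPM without IGF2BP1, IGF2BP2 and IGF2BP3 (log2 0.75, 1.45 and 2.02, adjusted p = 0.000299, 5.26e-07 and 3.74e-08). ENO3, the muscle enolase, was at 9.66 CPM in the controls and rose to 27.1 and 28.4 CPM without IGF2BP2 and IGF2BP3 (1.12 and 1.16). ENO4 went from 1.79 CPM to 4.33 and 4.05 CPM in the same knockouts and fell without IGF2BP1 (-1.09).

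Of 11 glucose and lactate transport genes tested, 4 rose and 4 fell without IGF2BP1, 3 rose and 3 fell without IGF2BP2, and 3 rose and 4 fell without IGF2BP3. SLC2A1, the ubiquitous glucose transporter GLUT1, went from 48.7 ± 3.57 CPM to 30.1 without IGF2BP2 (-0.97) and 21.2 without IGF2BP3 (-1.50), and was at 48.0 without IGF2BP1 (0.02, not called). SLC2A3, the high-affinity transporter GLUT3, went the other way between knockouts, from 11.7 CPM to 4.93 without IGF2BP1 (-1.50) and 23.7 without IGF2BP2 (1.04). SLC16A7, the monocarboxylate carrier MCT2, fell from 3.78 to 0.463 CPM without IGF2BP1 (-3.18) and rose to 8.69 and 12.9 CPM without IGF2BP2 and IGF2BP3 (1.14 and 1.68). SLC2A4, the insulin-regulated transporter GLUT4, fell without IGF2BP1 (-0.56) and IGF2BP2 (-1.73). Among 19 regulators of flux and pyruvate entry, 2 rose and 4 fell, 2 rose and 10 fell, and 3 rose and 9 fell in the knockouts of IGF2BP1, IGF2BP2 and IGF2BP3. TXNIP, which restrains glucose uptake, rose from 17.9 ± 2.88 CPM to 112 and 107 CPM without IGF2BP2 and IGF2BP3 (2.27 and 2.17) and to 22.4 CPM without IGF2BP1 (0.48). DLAT (log2 -1.28 and -0.70), PDHB (-1.07 and -0.44) and DLD (-1.04 and -0.90) fell without IGF2BP2 and IGF2BP3; each encodes a subunit of the pyruvate dehydrogenase complex, and they were named for the size of their change.

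Of 11 genes of the hypoxia-inducible factor pathway, 3 rose and 2 fell without IGF2BP1, 1 rose and 3 fell without IGF2BP2, and 2 fell without IGF2BP3. HIF1A, which was named after its values were seen, was at 117 CPM in the controls and 109.5, 118 and 130.3 CPM in the 3 knockouts (log2 -0.15, -0.17 and -0.06, adjusted p = 0.332, 0.198 and 0.634). EGLN3, a HIF prolyl hydroxylase, fell without IGF2BP2 (-1.24) and IGF2BP3 (-0.46), and its relative EGLN2 rose without IGF2BP1 (0.71) and fell without IGF2BP2 (-0.49). ARNT2, a partner of HIF proteins, rose without IGF2BP2 (0.90), and HIF1AN, which hydroxylates HIF1A on asparagine, fell without IGF2BP1 (-0.46). Of 18 HIF1 targets outside glycolysis that were tested, 4 rose and 5 fell, 6 rose and 4 fell, and 1 rose and 7 fell in the knockouts of IGF2BP1, IGF2BP2 and IGF2BP3. The list's median log2 change was -0.15, 0.12 and -0.17, beside -0.02, -1.18 and -0.75 for the 10 enzymes. HIF1A protein was not measured, and the part of HIF1 in the changes of the enzymes was not tested. VEGFA, a growth factor for blood vessels, rose from 64.9 ± 14.7 to 236 CPM without IGF2BP2 (1.43), BHLHE40, a clock-related repressor, rose there (1.73) and without IGF2BP3 (0.60), HMOX1, a heme oxygenase, rose without IGF2BP1 (1.33) and IGF2BP2 (0.87), and CA12, a carbonic anhydrase, fell in all 3 knockouts (-1.15, -1.20 and -1.34).

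Among routes that branch from glycolysis, none of 11 pentose phosphate genes was called without IGF2BP1, while 3 rose and 6 fell without IGF2BP2 and 1 rose and 9 fell without IGF2BP3. TALDO1, a transaldolase, went from 166 CPM to 72.2 without IGF2BP2 (-1.42) and 145 CPM without IGF2BP3 (-0.44). RPE, an epimerase of the same route, fell most without IGF2BP3 (-1.09), and TKTL1, a transketolase relative with few counts, rose without IGF2BP2 (1.12) and IGF2BP3 (1.99). Of 13 gluconeogenesis and glycogen genes tested, 3 fell without IGF2BP1, and 2 rose and 7 fell in each of the other knockouts. PGM2, a phosphoglucomutase, fell from 57.2 to 29.8 (-1.21) and 34.8 CPM (-1.02) in them. PCK1, a gluconeogenic carboxykinase at 0.663 CPM in the controls, fell without IGF2BP1 (-1.90) and rose without IGF2BP2 (2.69) and IGF2BP3 (1.31). PC, the pyruvate carboxylase, fell without IGF2BP2 (-1.16), and GYG1, which primes glycogen, without IGF2BP2 (-0.92) and IGF2BP3 (-0.99). Of 7 genes of serine synthesis, 2 rose and 2 fell, 1 rose and 3 fell, and 5 fell in the knockouts of IGF2BP1, IGF2BP2 and IGF2BP3. SHMT1, a serine hydroxymethyltransferase, fell in all 3 (-0.95, -0.75 and -0.37). MTHFD2, a mitochondrial folate enzyme, fell without IGF2BP3 (-0.89), PSPH, the phosphoserine phosphatase, without IGF2BP2 (-0.43) and IGF2BP3 (-0.84), and GLDC, a glycine decarboxylase, rose without IGF2BP1 (0.44) and fell without IGF2BP2 (-0.85).

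**Figure D5:**
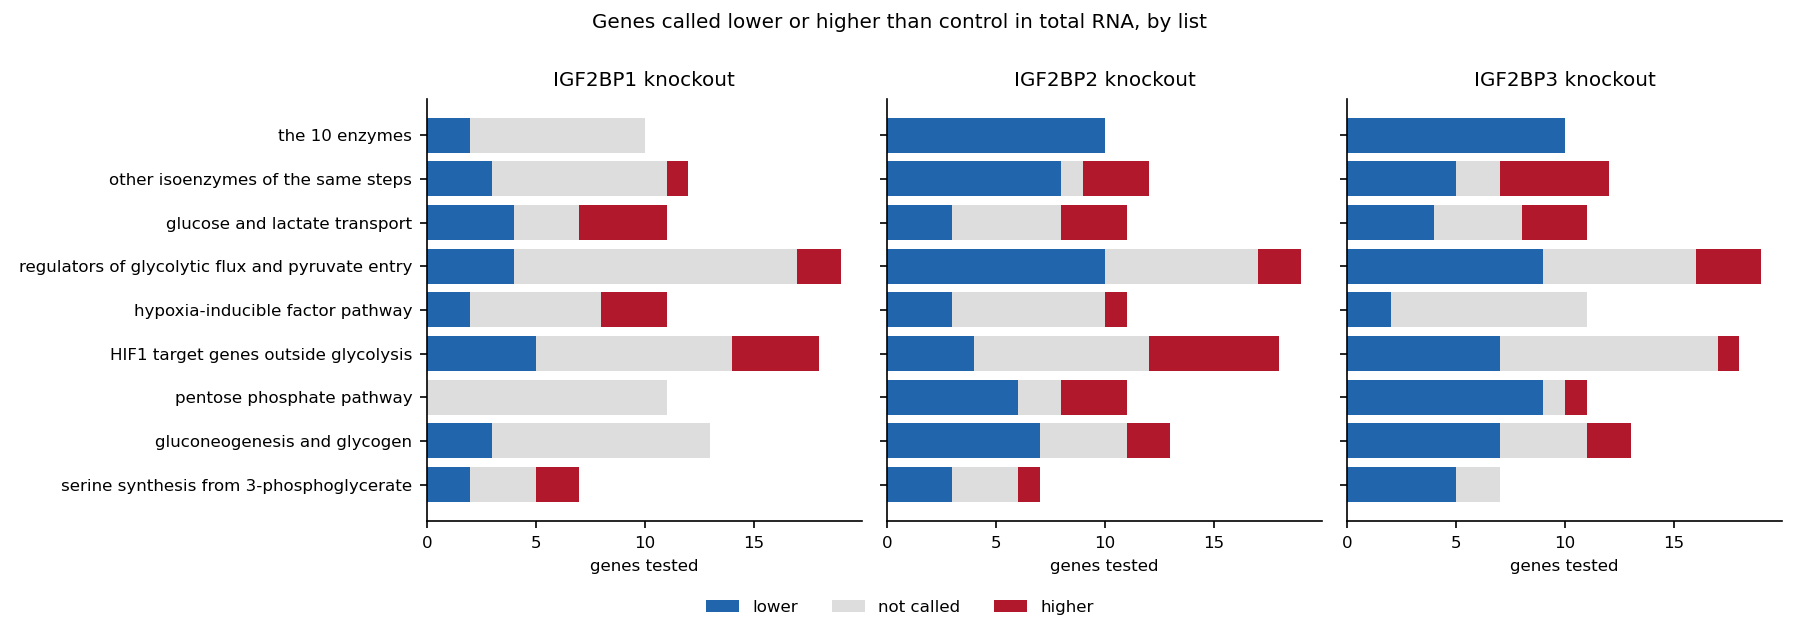
Number of genes called higher and lower in total RNA in each of 8 related gene lists and the 10 enzymes, with genes not called in grey, 1 panel per knockout. In the IGF2BP2 knockout 10 of the 10 enzymes are called lower, while 6 HIF1 targets outside glycolysis are called higher and 4 lower.

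The 9 fitted changes of each member (3 knockouts in 3 RNA kinds) were also set beside those of 11312 other genes. Likeness was measured as the mean absolute difference of the 9 log2 changes, which share control libraries, and is given as a description. Nearest to LDHA was CCT6A, a chaperonin subunit, at 0.137, and CCT6A was also nearest to ALDOA, at 0.127. In total RNA CCT6A changed by -1.49 without IGF2BP2 and -1.33 without IGF2BP3, and its change without IGF2BP1 was 0.17 and not called. Nearest to HK2 were BOLA3-DT (0.193) and PUS7 (0.200), a pseudouridine synthase. In total RNA PUS7 was at 31.4% of control without IGF2BP3 and at 71.6% without IGF2BP1, where HK2 was at 26.3% and 73.0%. Nearest to PFKP were FSCN1 (0.168), an actin-bundling protein, and HOXB6 (0.186), a homeobox factor. FSCN1 read -0.83, -1.47 and -0.75 in the total RNA of the 3 knockouts, where PFKP read -0.93, -1.36 and -0.62. Among the genes close to PKM was PDHB (0.0832), a pyruvate dehydrogenase subunit. GAPDH lay nearest to PPP1CC (0.0684) and ANXA7 (0.0737), and PGK1 to MRPS28 (0.066) and ALX4 (0.0769). PGAM1 lay nearest to DDX54 (0.0955) and PIR (0.112), and ENO1 to TRAP1 (0.0786), a mitochondrial chaperone, and GEMIN5 (0.0972). The next nearest were SQLE for ALDOA (0.130) and GCDH for LDHA (0.173), and TPI1, called in 5 of the 9 comparisons, was not looked up.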

How the data were processed

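Poly(A) RNA of 32 libraries was sequenced as stranded paired reads after fractionation with a commercial kit, per the labels' protocols. The authors deposited raw read counts per gene and FPKM values in a table of each kind for total, nuclear and cytoplasmic RNA. STAR, featureCounts, DESeq2 1.44.0 and the build GRCh38 are named in the submitters' processing notes, without their settings. The deposited FPKM values were scaled by genomic span, so levels between genes were computed from counts and exonic length in GENCODE 29.

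Counts were tested with edgeR 4.0.16 (R 4.3.3): TMM scaling, filterByExpr by group, and the quasi-likelihood F test of genotype with batch as a term in all libraries of an RNA kind. P-values were adjusted by Benjamini-Hochberg over 18745, 18732 and 18212 genes in total, nuclear and cytoplasmic RNA, and genes were called at an adjusted p under 0.05. Differences between knockouts were contrasts of the same fit. The ratio test was the interaction of genotype and fraction over batches 1 to 4, with batch and its interaction with fraction, on 19310 genes. Standard errors came from the F statistic. The scripts were tested on simulated data, where the ratio test missed more of the small changes than the tests within an RNA kind did. Alternatives were DESeq2 1.42.0, limma 3.58.1 on log2(FPKM + pseudocount of 1 or 0.1), other scalings and filters, no batch term, and leaving out each library. The library that 2 labels share was kept under both labels, with values given without it.

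Batch numbers come from the labels and pair knockout and control libraries. The difference between a pair of batches in a knockout and in the controls correlated at -0.11 to 0.02 over genes in 9 such comparisons, while controls of batches 1 and 2 differed from those of 3 and 4 (SD of log2 differences 0.308 to 0.392) more than within these pairs (0.207 to 0.25). Named genes were the members, up to 4 genes per list with the largest called change in total RNA at a mean of at least 1 CPM, and up to 2 nearest genes for each member called in at least 6 of 9 comparisons; some of the genes so named are not reported here. The members and lists were chosen with earlier results of these data known. Promoter sequences are those of RefSeq, GRCh38.p14, and all 10 members matched by symbol.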

Additional observations from a re-analysis of the deposited data

Results flagged for a closer look

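The effect of a knockout differed between nuclear and cytoplasmic RNA for several of the enzymes, by edgeR's test of the interaction between genotype and fraction with batch in the fit. In the IGF2BP2 knockout the nuclear minus the cytoplasmic effect (log2) was 0.41 for HK2, 0.42 for PFKP, 0.34 for TPI1, 0.39 for GAPDH, 0.38 for PGK1, 0.55 for PGAM1, 0.48 for ENO1 and 0.38 for LDHA. In the IGF2BP3 knockout it was 0.37 for HK2, 0.40 for PFKP, 0.36 for PGK1, 0.52 for ENO1 and 0.35 for PKM. All 13 differences lost their call in a fit without batch terms.

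PFKP in cytoplasmic control 4, at 143 CPM, lay further from the other 3 controls than Dixon's 95% limit allows. The test was run on 40 groups of 4 libraries, and chance alone passes that limit in about 1 group in 20.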

How the results depend on the processing

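Without IGF2BP2 and IGF2BP3, 10 and 9 to 10 members were called in total RNA and 10 and 10 in cytoplasmic RNA when single libraries were left out, and limma without a filter called 8 and 7 in total and 10 and 10 in cytoplasmic RNA. The cause of the shifts below was not tested. The share of all genes called is not given for the alternative fits of this section, so their counts of members cannot be set against it. In total RNA of the IGF2BP1 knockout, 1 member was called with limma on log2(FPKM + 1) without a filter and 1 with the batches of that knockout only, and 2 to 6 when single libraries were left out, 6 without control 1 or IGF2BP1 knockout 1. Limma without a filter called 3, 2 and 3 members for the differences IGF2BP2 minus IGF2BP1, IGF2BP3 minus IGF2BP1 and IGF2BP3 minus IGF2BP2 in total RNA. Leaving out single libraries gave 8 to 10, 7 to 10 and 5 to 10 there.

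In nuclear RNA limma on log2(FPKM + 0.1) and on log2(FPKM + 1) called 2 and 2 members without IGF2BP1, and 0, 3 and 2 were called without a filter in the 3 knockouts. Without the library that 2 labels share, 2 were called without IGF2BP1. Single libraries left out gave 2 to 6, 7 to 10 and 5 to 9. For IGF2BP2 minus IGF2BP1, limma gave 3 with a pseudocount of 0.1, 2 with 1 and 0 without a filter, and left-out libraries gave 3 to 7, 3 without control 3, control 4 or IGF2BP2 knockout 1. For IGF2BP3 minus IGF2BP1, limma without a filter gave 0, the fit without the shared library 8, and left-out libraries 4 to 8, 8 without control 1. For IGF2BP3 minus IGF2BP2, limma gave 3 with a pseudocount of 1 and 2 without a filter, and left-out libraries 5 to 9.

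Batch is the replicate block of the design. With no replicate block, 2 members were called without IGF2BP1 in nuclear and 2 in cytoplasmic RNA, 9 for IGF2BP3 minus IGF2BP1 in nuclear and 4 in cytoplasmic RNA, and 0 and 0 for the ratio change without IGF2BP2 and IGF2BP3. ENO1 in cytoplasmic RNA then changed sign between the IGF2BP3 and IGF2BP2 knockouts (0.072). For the ratio, left-out libraries gave 0 to 6, 2 to 10 and 1 to 8 calls in the 3 knockouts. Without IGF2BP2 the ratio calls were 3 and 4 without cytoplasmic controls 3 and 4, 3 and 2 without cytoplasmic IGF2BP2 knockouts 1 and 2, 2 without nuclear control 3 and 5 without nuclear IGF2BP2 knockout 2. Without IGF2BP3 they were 1 to 3 without any of the 4 cytoplasmic controls, cytoplasmic IGF2BP3 knockouts 1 and 2, nuclear controls 3 and 4 or nuclear IGF2BP3 knockout 1, and 8 without nuclear control 1 or 2 or either nuclear IGF2BP1 knockout. Scaling by library totals gave 3. In cytoplasmic RNA left-out libraries gave 6 to 9 calls without IGF2BP1, and 10, 9 and 10 for the differences. The fractions of the controls gave 5 to 7. With batch 5 in place of batches 3 and 4, TPI1 (0.10) and PKM (0.018) changed sign in cytoplasmic RNA without IGF2BP3. A further 94 of 5524 alternative values changed sign with no call in either setting. ALDOA had the fewest counts, at least 310 in every library.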
